A study of Mus musculus with 10 samples.

Results

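Transcripts of 40 genes of DNA replication and cell division were examined in mouse regulatory T (Treg) cells, a CD4 lineage that is defined by the factor Foxp3 and keeps immune responses in check. The genes were taken by name: for each, the probe set annotated with that gene symbol alone was used, and with more than 1 such probe set, the one with the highest mean over all arrays. This found 37 of the 40 among 22180 measured genes, 18 of 20 in replication and the G1 to S transition and 19 of 20 in the G2 phase and mitosis. Ccnb1, Ccne2 and Rfc4 had no probe set named for them alone and were not analysed here. Only Fen1 had more than 1 probe set.

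The study compared 5 samples of wild type (WT) Treg cells with 5 samples of LKB1-deficient Treg cells, whose titles give the genotype as a deletion of Stk11, the gene of LKB1. The LKB1 kinase switches on AMPK and its relatives. Both groups were sorted from mixed bone marrow chimeras, in which recipients carry marrow from more than 1 donor, and were lysed without culture, each sample hybridised to its own single-channel array. Not given in the sources used here are the deleted exons, the Cre driver, the age of the mice, the marrow mixture and any pooling of animals. Values are log2 signals, on which a difference of 1 is a doubling, and differences are LKB1-deficient minus WT. In RNA from a sorted population, fewer dividing cells and less transcript in each dividing cell cannot be told apart.

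Before a cell copies its DNA, the proteins encoded by Cdc6 and Cdt1 load the ring-shaped MCM helicase, built of the products of Mcm2 to Mcm7, onto replication origins. Cdc45 and the GINS complex turn the loaded ring into an active helicase, and the clamp PCNA and its loader keep the polymerases on the template. These genes are classic targets of E2F factors. Genes of mitosis are switched on later, through the MuvB, B-Myb and FoxM1 complexes that recognise a CHR element (cell cycle genes homology region) near their start sites. Transcripts of the first kind are made from late G1 onward and those of the second mainly in G2 and M, so Mki67 and Top2a are used as marks of cycling cells. Many Treg cells divide in the body, at a rate above that of other resting CD4 T cells.

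The promoters of the classes were compared by their letters. RefSeq promoter windows of GRCm38.p6, from 250 bases before to 50 after the annotated start, were held for 15 of the measured replication genes and 14 of the mitosis genes. Windows were searched on both strands for the E2F letters TTTCCCGC, TTTGGCGC, TTTCGCGC and TTTGCCGC, for the CHR letters TTTGAA and for CCAAT. An E2F match was held by 9 of 15 replication genes and by 1 of 14 mitosis genes, Cdk1, against 2.6% of the 27025 genes with a window; a gene with several windows counts once if any of them holds a match. A CHR match was held by 11 of 14 mitosis genes and 3 of 15 replication genes, against 20.2% of those genes, so the replication share was at the background. CCAAT was in 12 of 14 and 10 of 15, against 41.1%. A match of letters is a description and not a bound site. The following stretches end at the base before the start and are written from 5′ to 3′. They show Mcm6, the 1 gene of the 37 that passed the test described below, 2 further helicase genes, and Cdk1 and Top2a for the mitosis genes. Capitals mark E2F letters in the Mcm genes, CHR letters in Top2a, and both in Cdk1.
Mcm6 (chr1:128359706-128359955, minus strand): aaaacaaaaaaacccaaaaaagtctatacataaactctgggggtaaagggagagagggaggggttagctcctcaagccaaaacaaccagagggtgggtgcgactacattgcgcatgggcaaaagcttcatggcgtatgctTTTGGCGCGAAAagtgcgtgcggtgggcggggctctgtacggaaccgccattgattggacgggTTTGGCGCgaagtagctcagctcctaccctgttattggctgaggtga
Mcm7 (chr5:138171884-138172133, minus strand): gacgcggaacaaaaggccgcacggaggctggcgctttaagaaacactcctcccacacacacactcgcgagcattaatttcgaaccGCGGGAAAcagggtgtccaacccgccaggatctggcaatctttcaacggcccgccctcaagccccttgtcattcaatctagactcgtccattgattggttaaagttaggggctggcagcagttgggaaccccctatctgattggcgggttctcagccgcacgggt
Mcm5 (chr8:75109259-75109508, plus strand): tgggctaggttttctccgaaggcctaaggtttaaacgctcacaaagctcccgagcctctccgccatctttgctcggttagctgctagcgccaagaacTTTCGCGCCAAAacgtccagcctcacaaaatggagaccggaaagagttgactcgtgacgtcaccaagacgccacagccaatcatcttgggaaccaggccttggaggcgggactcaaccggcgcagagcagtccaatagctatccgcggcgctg
Cdk1 (chr10:69352913-69353162, minus strand): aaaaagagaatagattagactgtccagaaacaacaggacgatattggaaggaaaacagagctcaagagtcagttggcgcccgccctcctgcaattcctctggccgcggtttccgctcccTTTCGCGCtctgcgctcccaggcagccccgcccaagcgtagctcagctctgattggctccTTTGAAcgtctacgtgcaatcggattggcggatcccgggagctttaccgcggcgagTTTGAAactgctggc
Top2a (chr11:99024190-99024439, minus strand): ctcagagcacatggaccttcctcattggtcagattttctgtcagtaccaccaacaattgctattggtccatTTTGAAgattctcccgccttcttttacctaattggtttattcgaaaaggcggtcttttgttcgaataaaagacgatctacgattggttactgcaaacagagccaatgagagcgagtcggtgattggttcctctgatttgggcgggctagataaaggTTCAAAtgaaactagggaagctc
In Mcm6 a pair of E2F matches, 1 on each strand, overlap at 110 and 106 bases before the start, and another begins 47 bases before it. In Mcm5 a like pair lies 153 and 149 bases before the start. In Mcm7 the match in the stretch begins 165 bases before the start. Cdk1 holds CHR letters 71 and 15 bases before its start beside an E2F match at 131, and Top2a holds them 179 and 23 bases before.

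Facts of the whole arrays touch these genes. Stk11, the targeted gene, was at 6.61, 6.69, 6.75, 6.95 and 6.92 on WT arrays 1 to 5 and at 6.57, 6.01, 6.05, 6.71 and 6.78 on LKB1-deficient arrays 1 to 5. Its difference of -0.36 did not pass (adjusted p = 0.335). LKB1-deficient arrays 2 and 3 lay far below the WT range, array 1 just below it and arrays 4 and 5 inside it. Arrays 1, 4 and 5 held the highest Stk11 values of that group. Dropping them was therefore bound to give a larger difference (-0.75), which is no test of the deletion. Whether the probe set covers the deleted exons is unknown, so LKB1-deficient stands for the label of an array throughout, and the main results are also given without those 3 arrays. Array medians over all probe sets were 4.83 to 4.86 in WT and 4.88 to 4.94 in LKB1-deficient samples, and with those medians subtracted the median difference over all genes went from 0.00 to -0.05. Markers of other blood cells were high on LKB1-deficient arrays 1, 4 and 5. The mean of 15 measured monocyte, macrophage and dendritic cell markers of 16 listed spanned 6.51 to 6.83 in the WT group and was 7.01, 6.48, 6.76, 9.24 and 9.32 on LKB1-deficient arrays 1 to 5. The mean of 12 of 13 B and plasma cell markers was 5.13 to 5.44 on WT arrays and 6.59, 5.27, 5.34, 6.14 and 6.29 on the LKB1-deficient ones. The mean of 10 of 11 T and Treg cell genes was 10.74 to 10.81 and 10.28, 10.81, 10.85, 10.61 and 10.54. By the means of these 3 lists, LKB1-deficient arrays 2 and 3 were therefore within or close to the WT range. Single markers could differ from their list mean. For 3 of the 15 macrophage list markers, Lyz2, Itgam and Itgax, every LKB1-deficient array exceeded every WT array, against 0.996% of all genes. The reverse held for 0 of the 15, against 3.71% of all genes. Lyz2 read 9.68 and 9.76 in LKB1-deficient arrays 2 and 3 (WT maximum 9.57). Itgam read 4.51 and 4.57 there (WT maximum 4.46), and Itgax 4.672 and 4.964 (WT maximum 4.666). Limma called 0 of the 15. The mean of 4 CD8 T cell markers was above the WT range of 5.69 to 5.89 on all 5 LKB1-deficient arrays, at 6.05 to 6.64. That of 8 of 15 erythroid and platelet markers was too, at 5.52 to 6.23 against 5.31 to 5.48, and NK cell markers were slightly above the WT range on LKB1-deficient array 3. Neutrophil and progenitor markers had means of 4.18 to 4.59 on WT arrays and 5.33, 4.14, 4.54, 4.69 and 4.85 on LKB1-deficient ones. In limma Klrd1 of the NK list (1.53, adjusted p = 0.017) and Cd8a (0.77, adjusted p = 0.0423) were called higher. So were Gp9 of the platelet list (0.95, adjusted p = 0.0204) and Kit of the progenitor list (0.88, adjusted p = 0.0108). No marker was called lower. Over all genes 0.234% were called higher. The part of these cell types in the results was not tested. The scale has no zero, so no marker can be called absent.

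Most replication genes had slightly lower estimates in LKB1-deficient Treg cells, and 1 of them, Mcm6, passed the test. The class median difference was -0.23, against 0.00 over all genes, and 15 of 18 estimates were negative, against 49.2% of all genes. Such a shift was not particular to these genes: the 10 T and Treg cell genes had a median of -0.16, and 9 were negative. The lists of other cell types had positive medians. Mcm6 fell in the limma test across all genes (adjusted p under 0.05), and the other 17 did not pass. Over all genes 0.83% were called lower and 0.234% higher, 1.06% in all, so 1 called gene of 37 says little about the group. At an unadjusted p under 0.05, 7 of 18 were lower (38.9%) and 0 higher, against 8.8% and 5.19% of all genes. The median half-width of the 95% confidence intervals of these 18 differences was 0.24, so a change of this size in a single gene lies at the edge of what 5 arrays against 5 resolve.

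The MCM helicase held the clearest differences. Mcm6 encodes a subunit of the ring (probe set 17226550, Entrez gene 17219). It was at 8.23, 8.23, 8.40, 8.11 and 7.96 on WT arrays 1 to 5 and at 7.58, 7.67, 7.65, 7.82 and 7.54 on LKB1-deficient arrays 1 to 5. All 5 LKB1-deficient arrays lay below the lowest WT array. The WT mean was 8.19 ± 0.17 and the LKB1-deficient mean 7.65 ± 0.11 (SD, n = 5 each), a 1.45-fold lower level in the latter (log2 difference -0.53, SE 0.10, adjusted p = 0.0303). LKB1-deficient arrays 2 and 3, whose macrophage and B cell marker means lay within the WT range or below it, were at 7.67 and 7.65, inside the range of the other 3. On these arrays the marker means of CD8 T cells and of erythroid cells and platelets lay above the WT range. The call rested on all arrays together: with each array left out in turn it held in 3 of 10 fits, without WT 5, LKB1-deficient 1 or LKB1-deficient 4, and adjusted p ran from 0.0288 to 0.0907 while the difference stayed between -0.59 and -0.48. When LKB1-deficient arrays 1, 4 and 5 were dropped the call ended (difference -0.53, adjusted p = 0.081), as it did when the marker means of macrophages and of B cells were covariates (-0.51, adjusted p = 0.084). The part of other cell types in the Mcm6 difference was not tested.

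Mcm4, another subunit, was at 8.53, 8.35, 8.35, 8.26 and 8.35 on WT arrays 1 to 5 and at 8.16, 8.23, 8.09, 8.02 and 7.92 on LKB1-deficient arrays 1 to 5. Mcm7 was at 6.70, 6.92, 6.72, 6.70 and 6.72 and 6.08, 6.52, 6.54, 6.55 and 6.46 in the same order. In both genes the groups did not overlap, by a margin of the second decimal in Mcm4. The differences were -0.29 (SE 0.09, adjusted p = 0.167) and -0.32 (SE 0.11, adjusted p = 0.184). LKB1-deficient array 1 stood apart in Mcm7, at 6.08. Groups without overlap on the low side were seen in 3 of 18 replication genes, Mcm6, Mcm4 and Mcm7, and in 3.71% of all genes, and on the high side in 0 of 18 and 0.996% of all genes.

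Mcm3 was at 7.39, 7.13, 7.21, 7.18 and 6.94 in WT and 6.77, 6.82, 6.87, 6.77 and 7.08 in LKB1-deficient cells, arrays 1 to 5 each. Mcm2 was at 6.68, 6.74, 6.87, 6.64 and 6.61 and 6.39, 6.49, 6.68, 6.35 and 6.38. Mcm5 was at 6.70, 6.84, 6.76, 6.64 and 6.57 and 6.23, 6.74, 6.62, 6.32 and 6.70. In these 3 subunits the groups overlapped: LKB1-deficient array 5 reached the WT range in Mcm3, array 3 in Mcm2, and arrays 2, 3 and 5 in Mcm5. Their differences of -0.31, -0.25 and -0.18 had adjusted p of 0.181, 0.248 and 0.519. All 6 subunits thus had negative estimates, against 49.2% of all genes. They ran from -0.53 to -0.18 with a median of -0.30. Lower at an unadjusted p under 0.05 were 5 of 6 (83.3%, against 8.8% of all genes). All 6 kept their sign in every fit that left out an array, took 1 run of sample codes alone or changed the normalization.

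**Figure D1:**
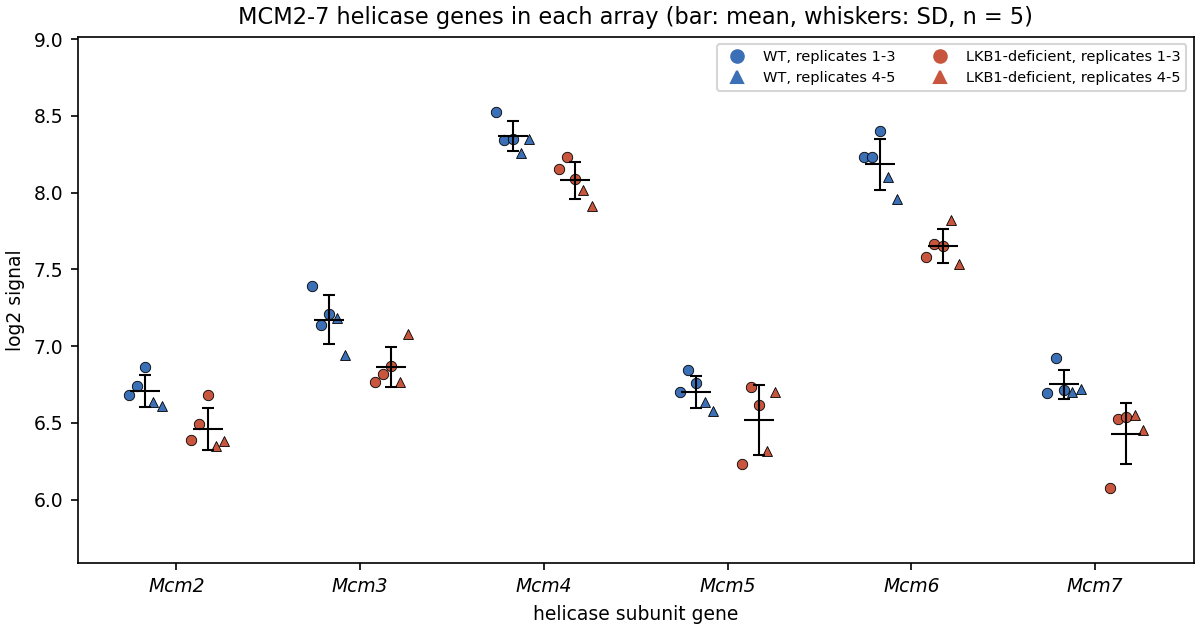
The log2 signal of Mcm2 to Mcm7 is plotted for each array (circles, replicates 1 to 3; triangles, replicates 4 and 5), with the mean as a bar and the SD over 5 arrays as whiskers. The groups separate without overlap in Mcm4, Mcm6 and Mcm7, where Mcm6 has a difference of -0.53, and overlap in Mcm2, Mcm3 and Mcm5.

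The mean of the 6 helicase genes on each array showed the same separation. It was 7.37, 7.37, 7.38, 7.25 and 7.19 on WT arrays 1 to 5 and 6.87, 7.08, 7.08, 6.97 and 7.01 on LKB1-deficient arrays 1 to 5. LKB1-deficient arrays 2 and 3 were the highest of their group and still below every WT array. Dropping the other 3 was therefore bound to shrink the difference of the helicase mean. In that fit the median difference of the 6 genes was -0.21, with Mcm2 at -0.12 and Mcm5 at -0.03. Lower at an unadjusted p under 0.05 were 2 of 6, where 3166 of 22180 genes passed in either direction. With the marker covariates the median was also -0.21 and 2 of 6 were lower, where 3008 of 22180 genes passed. The mean of the other 12 replication genes was 6.33 to 6.45 on WT arrays and 6.20 to 6.30 on LKB1-deficient arrays, a mean difference of -0.13 against -0.31 for the helicase. The 12 had a median difference of -0.14, and 9 of 12 were negative, against 49.2% of all genes. Of the 12, 2 were lower at an unadjusted p under 0.05 (16.7%, against 8.8% of all genes).

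Neither factor that loads the ring had a lower estimate. Cdt1 differed by 0.11 (interval -0.12 to 0.33 at 95% confidence; adjusted p = 0.702), with 7.30 to 7.53 on WT arrays and 7.30 to 7.77 on LKB1-deficient arrays. Cdc6 differed by 0.05 (-0.21 to 0.31, adjusted p = 0.906), with 4.46 to 4.88 and 4.53 to 5.09. Its signal was low: the group means of 4.74 and 4.79 lay below the array medians over all probe sets, 4.83 to 4.94. Both intervals reached below 0, the Cdc6 estimate turned negative with array medians subtracted, and that of Cdt1 in replicates 4 and 5 alone. Whether each loading factor and each helicase gene differ in response was not tested.

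Factors that activate the helicase had lower estimates without a call. Cdc45 was at 5.60, 5.77, 5.69, 5.71 and 5.86 on WT arrays 1 to 5 and 5.66, 5.53, 5.55, 5.61 and 5.54 on LKB1-deficient arrays 1 to 5. Gins1, a GINS subunit, was at 5.10, 5.14, 4.99, 4.80 and 4.51 and 4.99, 4.03, 4.72, 4.64 and 4.60. The groups overlapped in both, and LKB1-deficient array 2 was the lowest array in Gins1. The differences were -0.15 (adjusted p = 0.459) and -0.31 (adjusted p = 0.46), and Gins2, at 6.99 to 7.30 and 6.51 to 7.38, had -0.20 (adjusted p = 0.578). Signal was low for Gins1: its LKB1-deficient mean of 4.60 lay below the array medians of that group, 4.88 to 4.94.

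At the fork, Pcna encodes the sliding clamp. It was at 10.42, 10.38, 10.46, 10.25 and 10.30 on WT arrays 1 to 5 and 10.29, 10.03, 10.14, 9.97 and 10.12 on LKB1-deficient ones. Rfc3, a subunit of the clamp loader, was at 6.12, 6.22, 6.08, 6.31 and 5.88 and 5.67, 5.57, 5.86, 5.94 and 5.93. In Pcna LKB1-deficient array 1 alone reached the WT range, and in Rfc3 arrays 4 and 5 did, through WT array 5. The differences were -0.25 (SE 0.09, adjusted p = 0.213) and -0.33 (SE 0.11, adjusted p = 0.184). Fen1, which trims the flaps of lagging strand fragments, was at 6.60, 6.32, 6.45, 6.02 and 6.30 and 6.29, 6.09, 5.60, 6.09 and 6.18. LKB1-deficient array 3 was its lowest array, and the difference of -0.28 did not pass (adjusted p = 0.395); its dimmer second probe set had -0.11. Uhrf1, which carries methylation to new strands, had -0.13 (6.19 to 6.69 in WT, 6.08 to 6.53 in LKB1-deficient cells), and Pola1, the catalytic subunit of the priming polymerase, had -0.09 (5.54 to 6.13 and 5.57 to 6.10), with adjusted p of 0.674 and 0.821.

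E2f1 and Ccne1 act at entry into S phase, and neither passed. E2f1 was at 4.87, 5.21, 5.42, 5.27 and 5.48 on WT arrays 1 to 5 and at 4.83, 5.33, 5.35, 5.22 and 5.24 on LKB1-deficient arrays 1 to 5. The lowest array of each group was its array 1, and the difference was -0.06 (-0.35 to 0.24, adjusted p = 0.899). Ccne1, the cyclin E1 that activates Cdk2, had 0.08 (-0.18 to 0.35, adjusted p = 0.811), with 6.17 to 6.48 in WT and 6.22 to 6.71 in LKB1-deficient cells. Among replication genes with a promoter window, the 9 with E2F letters had a median difference of -0.18 (-0.53 to 0.11) and the 6 without had -0.20 (-0.28 to 0.08). The 10 with CCAAT had a median of -0.25, all of them negative, and the 5 without had 0.05; these are descriptions of few genes.

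**Figure D2:**
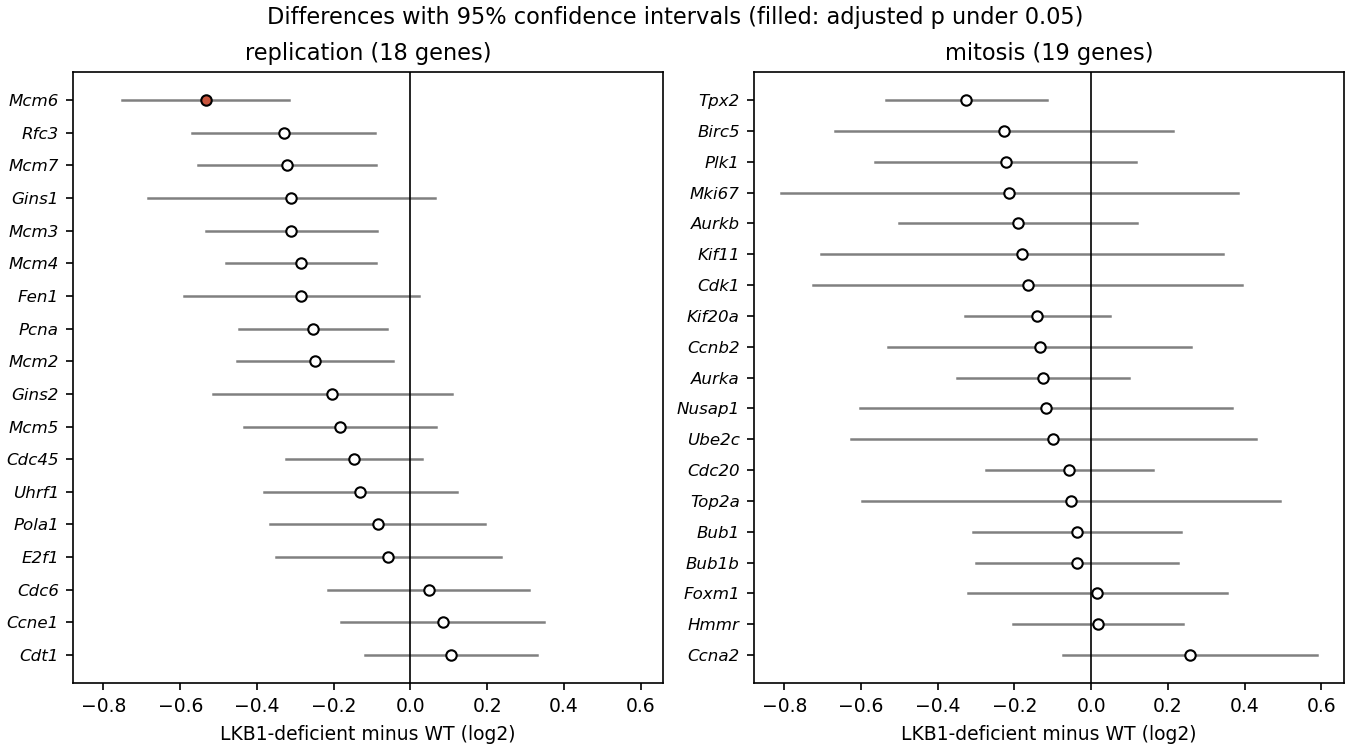
Each point is the difference in log2 signal, LKB1-deficient minus WT, of 1 gene, with its 95% confidence interval from limma, sorted within 18 replication and 19 mitosis genes. Mcm6 is the only filled point (adjusted p = 0.0303); the intervals of the mitosis genes are wider, with a median half-width of 0.34 against 0.24.

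The mitosis genes were not called in either direction: 0 of 19 passed the limma test, and at an unadjusted p under 0.05 there was 1 lower (5.26%, against 8.8% of all genes) and 0 higher. Their median difference was -0.12 and 16 of 19 estimates were negative (84.2%, against 49.2% of all genes). The arrays of a group differed from one another more than in the replication genes. The median SD of a mitosis gene was 0.28 in WT and 0.33 in the LKB1-deficient group, against 0.16 and 0.19 for a replication gene and 0.15 and 0.21 over all genes.

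Spindle and chromosome genes show that spread. Mki67, whose product coats mitotic chromosomes, was at 7.20, 6.75, 7.18, 6.56 and 6.10 on WT arrays 1 to 5 and at 7.47, 6.37, 5.90, 6.40 and 6.59 on LKB1-deficient arrays 1 to 5. Top2a, the topoisomerase that untangles sister chromatids, was at 6.50, 6.50, 6.65, 5.92 and 5.33 and 6.74, 5.94, 5.86, 6.27 and 5.84. In both genes LKB1-deficient array 1 was above every WT array, and WT array 5 was the lowest of the WT group. The differences were -0.21 (-0.81 to 0.38, adjusted p = 0.786) and -0.05 (-0.60 to 0.49, adjusted p = 0.954). Without LKB1-deficient arrays 1, 4 and 5 they were -0.62 (adjusted p = 0.339) and -0.28 (adjusted p = 0.758), and with single arrays left out Mki67 ran from -0.44 to -0.05. Arrays 1, 4 and 5 had the highest mitosis means of the LKB1-deficient group, so dropping them was bound to lower the mean mitosis difference. Kif11, the motor that separates spindle poles, was at 5.59, 5.51, 5.59, 5.10 and 4.53 and 5.82, 4.96, 4.60, 5.13 and 4.93, with a difference of -0.18 (adjusted p = 0.795), or -0.49 (adjusted p = 0.461) without those 3 arrays. Kif20a, a kinesin of cytokinesis, was at 5.83, 6.07, 6.02, 5.86 and 5.90 and 5.64, 5.75, 5.88, 5.84 and 5.86, a narrow range in both groups, and had -0.14 (adjusted p = 0.516).

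Tpx2, which activates Aurora A on the spindle, had the smallest p of the mitosis genes. It was at 5.20, 5.15, 5.04, 5.22 and 4.92 on WT arrays 1 to 5 and at 4.87, 4.57, 4.72, 4.85 and 4.89 on LKB1-deficient arrays 1 to 5. The groups did not overlap, though both arrays numbered 5 lay close together, and the difference was -0.33 (SE 0.10, adjusted p = 0.144). Tpx2 was the 1 mitosis gene of 19 without overlap, on the low side (5.26%, against 3.71% of all genes), which is near the background share. Nusap1 (4.72 to 5.50 in WT, 4.34 to 5.70 in LKB1-deficient cells) had -0.12 and Hmmr (3.56 to 3.79 and 3.49 to 3.91) had 0.02, with adjusted p of 0.864 and 0.963. Both encode spindle proteins. Hmmr and Bub1 were below the median signal of every array, so these are low values. Signal was low for Tpx2 too: its LKB1-deficient mean of 4.78 lay below the array medians of that group, 4.88 to 4.94.

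Among the cyclins and their kinase, Cdk1 was at 5.91, 5.93, 5.69, 4.90 and 5.47 on WT arrays 1 to 5 and at 6.14, 4.70, 5.12, 5.61 and 5.49 on LKB1-deficient arrays 1 to 5. Ccnb2, a cyclin partner of Cdk1 in mitosis, was at 6.78, 6.64, 6.85, 6.53 and 6.14 and 6.62, 6.16, 6.15, 6.30 and 7.03. The groups overlapped in both, and the highest array was LKB1-deficient 1 in Cdk1 and LKB1-deficient 5 in Ccnb2. The differences were -0.17 (adjusted p = 0.826) and -0.13 (adjusted p = 0.798). Without LKB1-deficient arrays 1, 4 and 5 they were -0.67 (adjusted p = 0.268) and -0.43 (adjusted p = 0.297). Ccna2, the cyclin A2 of S and G2 phase, was at 6.30, 6.32, 6.23, 6.15 and 5.59 and 6.72, 6.40, 6.27, 6.14 and 6.35. Its estimate was positive at 0.26 (-0.07 to 0.59, adjusted p = 0.493), the largest positive estimate of the 37, and the low WT array 5 added to it. Foxm1, the factor that drives many of these genes, was at 5.68, 5.47, 5.63, 5.25 and 5.51 and 5.51, 5.58, 4.95, 5.75 and 5.84, with a difference of 0.02 (-0.32 to 0.35, adjusted p = 0.976).

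No mitotic kinase, and no partner or checkpoint gene set beside them here, passed the test. Aurkb, of the chromosomal passenger complex, was at 5.73, 5.77, 5.74, 5.67 and 5.00 on WT arrays 1 to 5 and 5.30, 5.57, 5.36, 5.41 and 5.32 on LKB1-deficient arrays 1 to 5. Aurka, the spindle pole kinase, was at 5.37, 5.53, 5.45, 5.25 and 5.37 and 5.36, 5.27, 5.31, 5.44 and 4.96. WT array 5 was low in Aurkb and LKB1-deficient array 5 in Aurka, and the groups overlapped in both. Plk1, which acts from mitotic entry to exit, was at 5.61, 6.02, 5.68, 5.87 and 5.50 and 5.11, 5.78, 5.53, 5.89 and 5.27. Birc5, the survivin subunit of the passenger complex, was at 6.15, 5.83, 5.89, 6.09 and 5.15 and 5.96, 5.24, 5.27, 5.57 and 5.94. Their differences were -0.19, -0.12, -0.22 and -0.23 in this order, with adjusted p of 0.606, 0.645, 0.575 and 0.676. Without LKB1-deficient arrays 1, 4 and 5, Birc5 was at -0.57, Plk1 at -0.08 and Aurkb at -0.12. The checkpoint genes Bub1 (3.76 to 4.24 in WT, 3.77 to 4.23 in LKB1-deficient cells) and Bub1b (4.91 to 5.29 and 4.76 to 5.39) both had -0.04, with adjusted p of 0.93 and 0.929. Of the genes of anaphase promotion, Cdc20, the activator of the ubiquitin ligase, had -0.06 (5.54 to 5.78 and 5.38 to 5.74), and Ube2c, its ubiquitin carrier, had -0.10 (5.84 to 6.48 and 5.36 to 6.63), with adjusted p of 0.849 and 0.903. Ube2c was at -0.70 (adjusted p = 0.102) without LKB1-deficient arrays 1, 4 and 5.

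**Figure D3:**
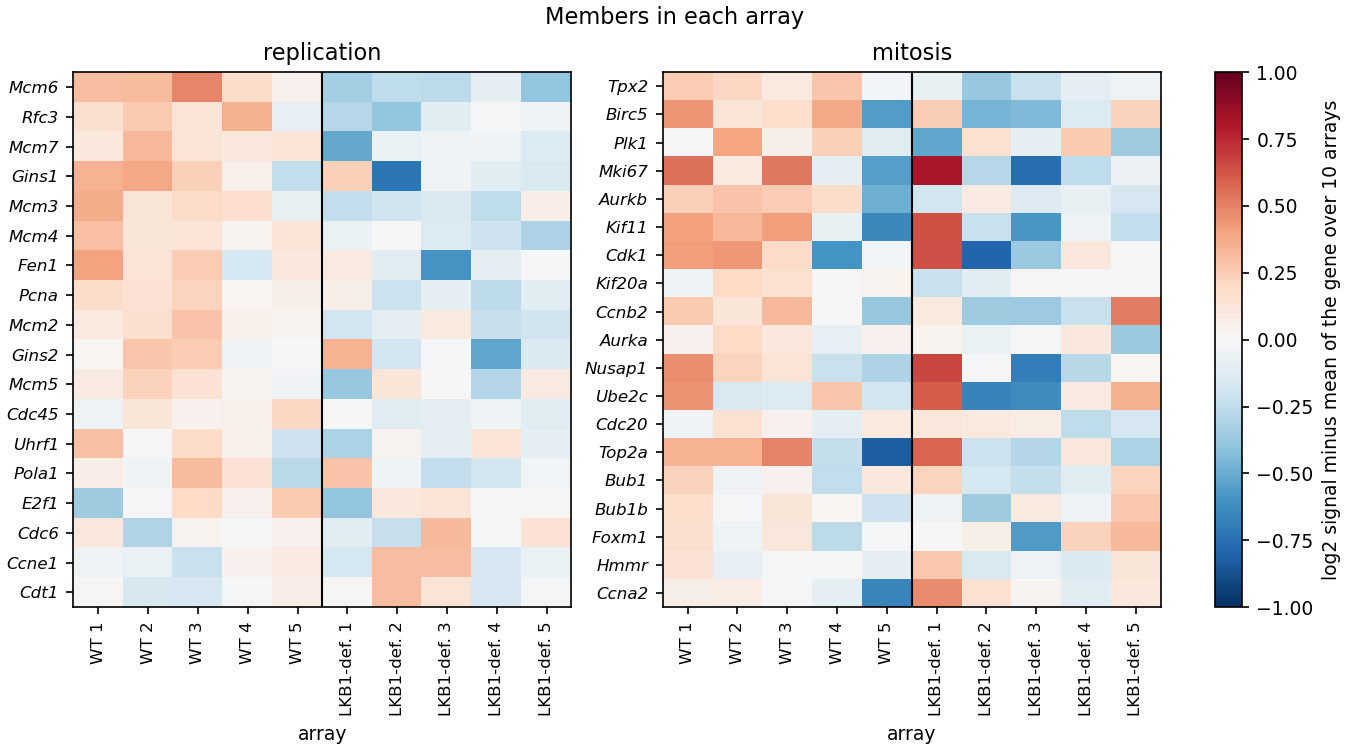
Each row is 1 gene and each column 1 array, coloured by the log2 signal minus the mean of the gene over the 10 arrays, with replication genes on the left and mitosis genes on the right. The upper replication rows change colour at the line between the groups, whereas in the mitosis rows WT array 5 is the lowest WT array in 13 of 19 genes and LKB1-deficient array 1 the highest of its group in 10 of 19.

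Setting the classes side by side, the mean of the 18 replication genes was 6.74, 6.71, 6.76, 6.66 and 6.61 on WT arrays 1 to 5 and 6.49, 6.51, 6.55, 6.46 and 6.52 on LKB1-deficient arrays 1 to 5. The groups did not overlap. The mean of the 19 mitosis genes was 5.72, 5.63, 5.65, 5.45 and 5.23 in the WT group and 5.71, 5.29, 5.21, 5.44 and 5.51 in the LKB1-deficient group, with nearly the same range in both groups. These gave mean differences of -0.19 and -0.11. The replication mean minus the mitosis mean had a mean and SD of 1.16 ± 0.14 over 5 WT arrays and of 1.08 ± 0.22 over 5 LKB1-deficient arrays, ranging from 1.01 to 1.38 and from 0.78 to 1.35. The difference between the classes was thus smaller than the spread between arrays, and the data do not show that replication genes fell more than mitosis genes. Without LKB1-deficient arrays 1, 4 and 5 the mitosis median was -0.24 and the replication median -0.19, and with the marker covariates they were -0.22 and -0.19. Arrays 1, 4 and 5 had the highest mitosis means of the LKB1-deficient group. Dropping them was therefore bound to lower the mean mitosis difference, which is no test of the classes. Between 7 and 10 of the 18 replication genes were below every WT array on each LKB1-deficient array, against 3 to 6 of the 19 mitosis genes. Neither this count nor the next was made over all genes, so both lack a background and are descriptions only. Above every WT array were 8 mitosis genes on LKB1-deficient array 1, among them Mki67, Top2a, Cdk1 and Ccna2, and 0 to 4 on the others. That array also had the highest B and plasma cell (6.59) and NK cell (5.63, against 4.58 to 4.77 on WT arrays) marker means. The part of other cell types in the mitosis values was not tested.

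**Figure D4:**
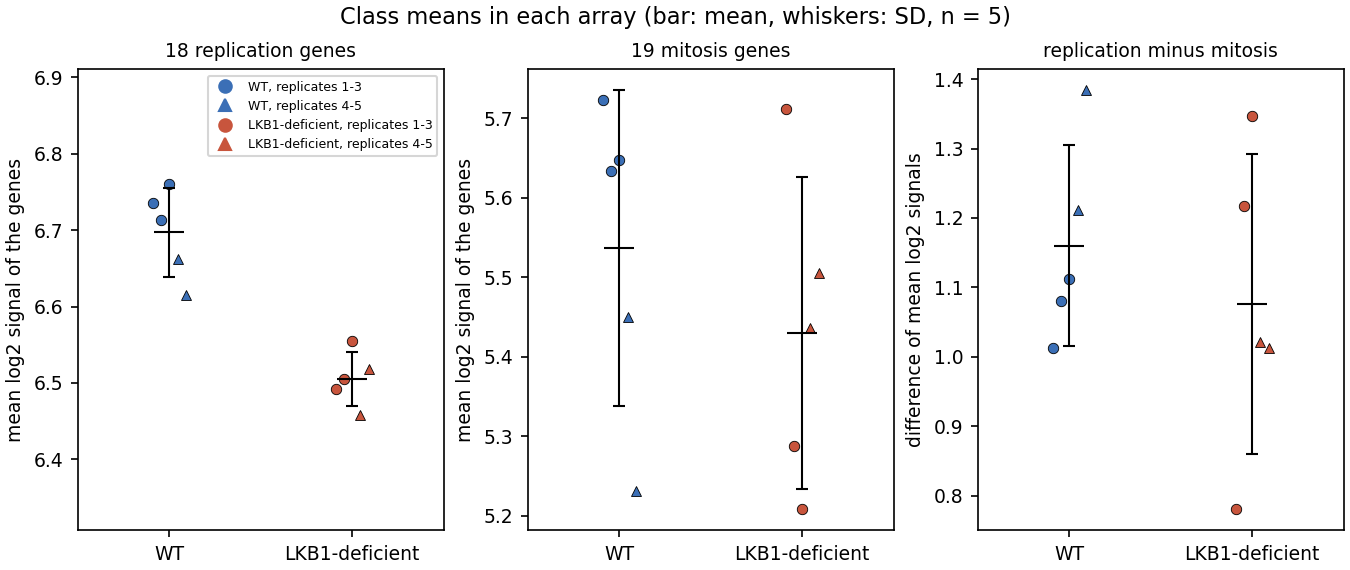
Mean log2 signal of the replication genes, of the mitosis genes, and the difference of these means, for each array, with the mean and SD over 5 arrays; the vertical scales of the panels differ. Replication means are 6.61 to 6.76 in WT and 6.46 to 6.55 in LKB1-deficient cells, while the mitosis means and the difference overlap.

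The running codes in the sample descriptions form 2 runs, replicates 1 to 3 of both groups and then replicates 4 and 5 of both, and the estimates were compared between them. Within replicates 1 to 3 the mitosis median difference was -0.29 and 16 of 19 estimates were negative. Within replicates 4 and 5 it was 0.14, and 14 of 19 were positive. Mki67 went from -0.46 to 0.16, Top2a from -0.37 to 0.43 and Cdk1 from -0.52 to 0.37. WT arrays 4 and 5 had the lowest mitosis means of their group, and LKB1-deficient arrays 4 and 5 the highest macrophage marker means. Tests of the difference between runs, chosen after seeing the data, called 0 of 37 members in limma, and 1.08% of all genes. Foxm1 (adjusted p = 0.538) and Ccnb2 (adjusted p = 0.562) were the 2 members at an unadjusted p under 0.05, which 7.96% of all genes passed, so the members did not exceed the background. The replication medians were -0.25 and -0.15, and 14 of 18 replication genes had the same sign in both runs, the exceptions being Uhrf1, Ccne1, Cdt1 and E2f1. The helicase mean differed by -0.37 and -0.23, without overlap in either run, and Mcm6 by -0.65 (adjusted p = 0.183) and -0.35 (adjusted p = 0.425). The fit of replicates 1 to 3 alone called 0 of the 22180 genes. That of replicates 4 and 5, with 2 arrays in each group, called 46 lower and 423 higher. The labels leave the meaning of the codes unstated, and 6 of 19 mitosis genes had the same sign in both runs, Tpx2, Plk1, Aurka, Kif20a, Ccna2 and Hmmr.

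**Figure D5:**
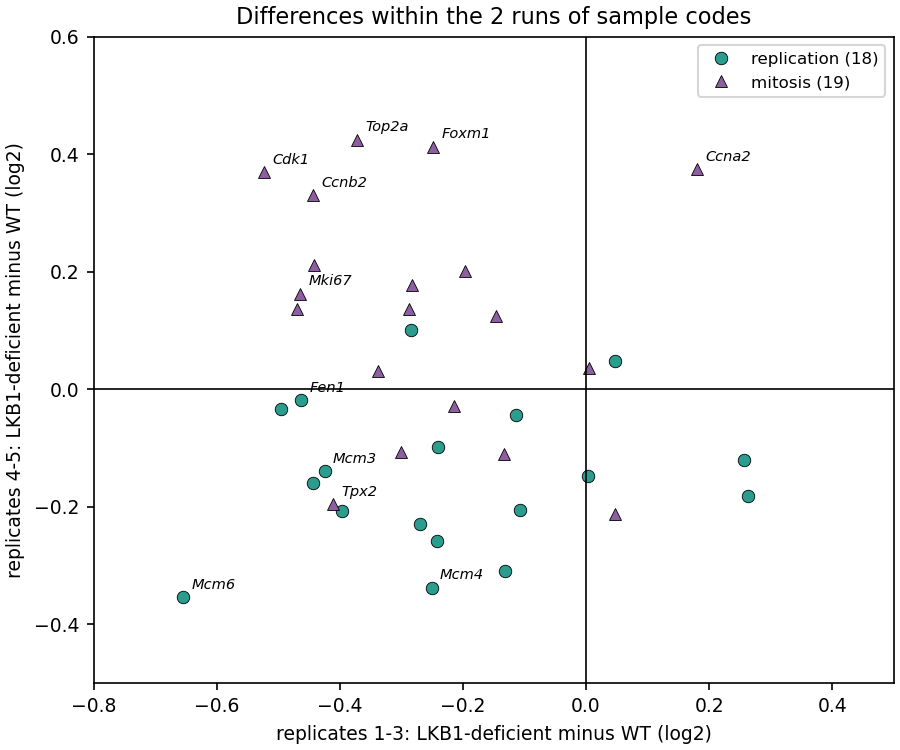
Each point is 1 gene, with its log2 difference, LKB1-deficient minus WT, within replicates 1 to 3 on the horizontal axis and within replicates 4 and 5 on the vertical axis. Mcm6 lies at -0.65 and -0.35 in the lower left with most replication genes, whereas 14 of 19 mitosis genes lie above 0 on the vertical axis.

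Other genes of the same processes, from lists that do not contain the 37, were mostly without a call too. Of 48 further replication genes measured, 1 fell (2.08%, against 0.83% of all genes) and 0 rose (0.234% of all genes). Their median difference was -0.10, with 34 negative estimates (70.8%, against 49.2% of all genes). At an unadjusted p under 0.05, 10 were lower (20.8%, against 8.8% of all genes) and 1 higher (5.19% of all genes). The 1 called gene was Pold2, a subunit of the lagging strand polymerase delta. It was at 8.08, 8.35, 7.99, 8.14 and 8.01 on WT arrays 1 to 5 and 7.28, 7.73, 7.54, 7.64 and 7.21 on LKB1-deficient arrays 1 to 5. Its groups did not overlap, and the difference was -0.63 (SE 0.12, adjusted p = 0.0303, past in 3 of the 10 fits that left out an array). Of 65 further mitosis genes, limma called 0, and the median was -0.10. At an unadjusted p under 0.05, 5 were lower (7.69%, against 8.8% of all genes) and 0 higher (5.19% of all genes). The smallest p were those of Ect2 (-0.45), Smc2 (-0.36) and Racgap1 (-0.39), which act in cytokinesis and chromosome condensation, with adjusted p of 0.152, 0.218 and 0.224.

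Among 38 genes that govern cycle entry and arrest, 2 fell (5.26%, against 0.83% of all genes) and 0 rose, with a median of -0.10. Lower at an unadjusted p under 0.05 were 9 (23.7%, against 8.8% of all genes), and 3 were higher (5.19% of all genes). Cdk4, the kinase that cyclin D activates to release E2F from the retinoblastoma protein, was at 8.47, 8.54, 8.56, 8.38 and 8.41 on WT arrays 1 to 5 and 7.61, 7.89, 8.01, 7.80 and 7.90 on LKB1-deficient arrays 1 to 5. Every LKB1-deficient array lay below every WT array, and the level was 1.54-fold lower (-0.63, SE 0.09, adjusted p = 0.0117). It stayed past the threshold in all 10 fits that left out an array, at adjusted p of up to 0.0491. The call also held with LKB1-deficient arrays 1, 4 and 5 dropped (-0.52, adjusted p = 0.0417) and with the marker covariates (-0.53, adjusted p = 0.0297). It ended with the replicate number as a block (adjusted p = 0.0573). Cdk4 also did not pass in replicates 1 to 3 alone (-0.68, adjusted p = 0.215) or in replicates 4 and 5 alone (-0.54, adjusted p = 0.146). Tfdp1, the DNA-binding partner of the E2F factors, was at 7.60, 7.52, 7.68, 7.80 and 7.55 and 7.10, 7.33, 6.91, 7.22 and 6.93. Its groups did not overlap either, with a difference of -0.53 (SE 0.10, adjusted p = 0.0369), past in 2 of those 10 fits. Dropping LKB1-deficient arrays 1, 4 and 5 ended this call (-0.51, adjusted p = 0.11) and that of Pold2 (-0.48, adjusted p = 0.108), and so did the covariates (adjusted p = 0.115 and 0.137), the replicate block (0.103 and 0.0633) and a fit without moderation (0.0619 and 0.0691). Myc, a gene outside these lists that encodes a transcription factor that growth signals induce, was at 9.60, 9.68, 9.57, 9.61 and 9.47 on WT arrays 1 to 5 and 8.21, 9.08, 9.14, 8.92 and 8.75 on LKB1-deficient arrays 1 to 5. The groups did not overlap, and the difference was -0.76 (SE 0.15, adjusted p = 0.0398). The call was past in 3 of the 10 fits that left out an array. It ended with the replicate block (adjusted p = 0.0849), without moderation (adjusted p = 0.109) and with LKB1-deficient arrays 1, 4 and 5 dropped (-0.47, adjusted p = 0.0557), and held with the covariates (-0.49, adjusted p = 0.0366). Like Cdk4, the genes Tfdp1, Pold2 and Myc did not pass in either run of codes alone. None of them passed at an adjusted p under 0.01.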

How the data were processed

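Messenger RNA was measured in 5 WT and 5 LKB1-deficient Treg samples, 1 array each. The deposited values are log2 signals for 41345 probe sets, made by the authors with RMA (background correction, quantile normalization and probe summary) and Partek 6.6 per the submitters' processing notes, with order and settings not given in the sources used here. A few nanograms of RNA were amplified per the labels' protocols, which can distort levels. Of the probe sets 23521 had 1 gene symbol, 1814 several and 16010 none, and 23328 Entrez identifiers matched the RefSeq table of GRCm38.p6, which gave names only. Groups came from the sample titles. Differences were tested in limma 3.58.1 (R 4.3.3; lmFit, eBayes, prior degrees of freedom 4.36) over all 22180 genes, with no low-value filter and Benjamini-Hochberg adjustment; a gene was called at an adjusted p under 0.05. The code was tested on simulated data. No label ties the arrays to separate animals. The p-values therefore measure only how these samples vary, which may be technical, and precision is limited by the number of arrays.

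The members and lists were chosen with earlier results of these data known, so lists are described by counts and medians, with no list test. All 40 members are accounted for. Values in every array are given for members that passed, members whose groups did not overlap, Mcm2 to Mcm7, a few fixed marks of the cycle, and the 10 smallest p of each class. Other lists of cycle genes are represented by called genes, or the 3 smallest p. Cell type lists are given by their means, their called genes and a few further markers. Alternatives were the mean over probe sets, the dimmest 40% of genes left out, array medians subtracted, another round of quantile normalization, a robust prior with a trend, array weights, no moderation, the replicate number or the run of codes as a block, each run alone, each array left out, LKB1-deficient arrays 1, 4 and 5 left out, marker means as covariates, and adjusted p under 0.10 or 0.01.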

Additional observations from a re-analysis of the deposited data

Results flagged for a closer look

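Within a group of 5 arrays, 1 array stood far from the other 4 in 6 of the 78 sets of values tested (37 genes and both class means in each group), by Dixon's criterion, where chance gives about 1 in 20. WT array 5 was low in Ccna2, at 5.59 against 6.15 to 6.32 on the other WT arrays, and in Aurkb, at 5.00 against 5.67 to 5.77. WT array 2 was high in Mcm7, at 6.92 against 6.70 to 6.72. LKB1-deficient array 1 was low in Mcm7, at 6.08 against 6.46 to 6.55, and in E2f1, at 4.83 against 5.22 to 5.35. LKB1-deficient array 3 was low in Fen1, at 5.60 against 6.09 to 6.29.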

How the results depend on the processing

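The count of members called lower, 1 of 37 and the same gene for the replication class, fell to 0 with the replicate block (Mcm6 difference -0.53, adjusted p = 0.0919), in either run of codes alone, without LKB1-deficient arrays 1, 4 and 5, with the marker covariates and at an adjusted p under 0.01, and was 0 to 1 with each array left out. The cause was not tested, beyond the fewer arrays of some fits. It stayed at 1 under the other alternatives run. No member was called higher and no mitosis gene lower in any of them. The replicate numbers share only a number: 1 of 5 same-numbered pairs correlated above 0.1 and 1 of 5 WT arrays correlated best with its own number, and the fit with the block called 36 lower and 14 higher genes, where that without it called 184 and 52. The replication median of -0.23 was -0.28 with array medians subtracted and -0.15 in replicates 4 and 5 alone; the mitosis median turned to 0.14 there, and was -0.24 without LKB1-deficient arrays 1, 4 and 5 and -0.22 with the covariates. With each array left out they were -0.25 to -0.19 and -0.19 to -0.06.

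Signs turned in at least 1 alternative for 19 of 37 members, none of them called. In replicates 4 and 5 alone these were Mki67 (0.16), Top2a (0.43), Ccnb2 (0.33), Cdk1 (0.37), Aurkb (0.031), Bub1 (0.13), Bub1b (0.20), Birc5 (0.14), Kif11 (0.21), Nusap1 (0.14), Ube2c (0.18), Uhrf1 (0.10), Ccne1 (-0.18) and Cdt1 (-0.12). In replicates 1 to 3 alone they were Cdc20 (0.047), E2f1 (0.0029) and Foxm1 (-0.25). Cdc20, E2f1, Foxm1 and Hmmr were at 0.056, 0.090, -0.24 and -0.093 without LKB1-deficient arrays 1, 4 and 5 and at 0.059, 0.051, -0.22 and -0.092 with the covariates. Foxm1 and Hmmr were at -0.034 and -0.033 with array medians subtracted, where Cdc6 was at -0.0030, at -0.017 and -0.018 after a second quantile normalization, and at -0.017 and -0.024 with array weights. With each array left out, the ranges that crossed 0 were -0.26 to 0.065 for Top2a, -0.35 to 0.011 for Cdk1, -0.10 to 0.018 for Bub1, -0.11 to 0.048 for Bub1b, -0.30 to 0.040 for Nusap1, -0.26 to 0.056 for Ube2c, -0.028 to 0.11 for Cdc6, -0.15 to 0.034 for E2f1, -0.063 to 0.16 for Foxm1 and -0.047 to 0.058 for Hmmr.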
